A study of Saccharomyces cerevisiae with 6 samples.

Results

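The genes examined here form a continuous stretch of chromosome IV of budding yeast, from GCD6 (YDR211W) to EXG2 (YDR261C). The run was picked on expression itself: its genes had higher signals in a strain deleted for FUN30 than in the wild type on the same arrays that are described here. Membership was set by locus tag in the RefSeq gene table (assembly R64). It took in 43 of the 6477 genes of that table, and 5 other genes inside the span, as well as the transposon ORFs beside it, were left out. Of the 43 members, 42 were measured on the expression arrays and 26 had a deletion strain on both integration arrays. The unnamed ORF YDR215C had no annotated probe set.

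The wild type was BY4741, a haploid laboratory strain that lacks several biosynthetic marker genes. The mutant was BY4741 with FUN30 deleted, called isogenic by the labels, and both were grown to log phase in synthetic complete medium. FUN30 encodes a chromatin remodeller of the Snf2 family that promotes the resection of broken DNA ends. Total RNA of each genotype was hybridised to 2 arrays, and the labels do not say whether these came from separate cultures. In the other experiment, pooled diploid strains that each lack both copies of a gene received a URA3 cassette replacing ISU1, a URA3 cassette replacing SOD2, or the circular plasmid pRS416, and transformants grew without uracil for 2 days at 30 °C. Each cassette pool was set against a plasmid pool on 1 two-colour array of strain barcodes.

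The run is a stretch of unrelated neighbours, not a pathway. Yeast genes are mostly transcribed one by one, each from its own promoter and on either strand, and neighbours commonly serve different processes. This stretch holds genes for translation initiation, protein folding, splicing, vesicle traffic, haem and lysine synthesis, peroxisomal import, the kinetochore and the cell cycle, together with several transcription factors. In the RefSeq gene order 4 suffixed ORFs lie directly before GCD6 and 4 lie directly after EXG2. These belong to Ty retrotransposons, the mobile elements of yeast, which are often found beside tRNA genes. The same table lists 1 tRNA gene among the suffixed ORFs before the run, 2 among those after it and 1 inside it. The array tables name no genome build, so gene order is used here and positions in bases are not given.

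The 4 expression arrays had like medians, from 10.59 to 10.61 (log2), over the probe sets tested. A background level of 5.24 (log2) was taken from probe sets annotated outside the RefSeq table. FUN30 had signals of 9.63 and 9.40 on the wild-type arrays and of 3.37 and 3.55 on the deletion arrays, which matches the labels. Among the markers that BY4741 lacks, LEU2 and URA3 lay below the background level in both genotypes, and HIS3, of which BY4741 lacks only a part, had means of 12.73 (deletion) and 12.94 (wild type). MET17, the homocysteine-forming sulphydrylase gene that BY4741 also lacks, had signals of 5.49 and 5.47 in the wild type but of 13.05 and 12.94 in the deletion. The labelled background of the deletion strain therefore did not hold for this gene. An effect of FUN30 loss and another difference between these strains cannot be told apart in any expression value below. The copy number of the run in either strain was not measured on these arrays.

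All 42 measured members had a higher mean signal in the deletion. Their median difference was 0.85 (log2), or 1.80-fold. The members' differences spanned 0.32 to 1.26, or 1.25-fold to 2.39-fold, with a SD over members of 0.22 and standard errors of 0.06 to 0.21 (limma, n = 2 arrays a group). Over all 5498 tested probe sets the median difference was −0.003 and the SD 0.28. Both deletion arrays lay above both wild-type arrays for all 42 members, where 28.5% of all tested probe sets showed such a separation in this direction. In limma with Benjamini-Hochberg adjustment 36 of the 42 members had an adjusted p under 0.05, against a background of 1.36% of tested probe sets called higher. Because the run was found in this contrast, these counts describe how it was chosen and are not a test of it. With 1 array left out 34 to 40 members passed, and RTN1 passed in none of these 4 fits. RNA of whole cultures was measured, so more RNA per cell and more cells with the RNA cannot be told apart.

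**Figure D1:**
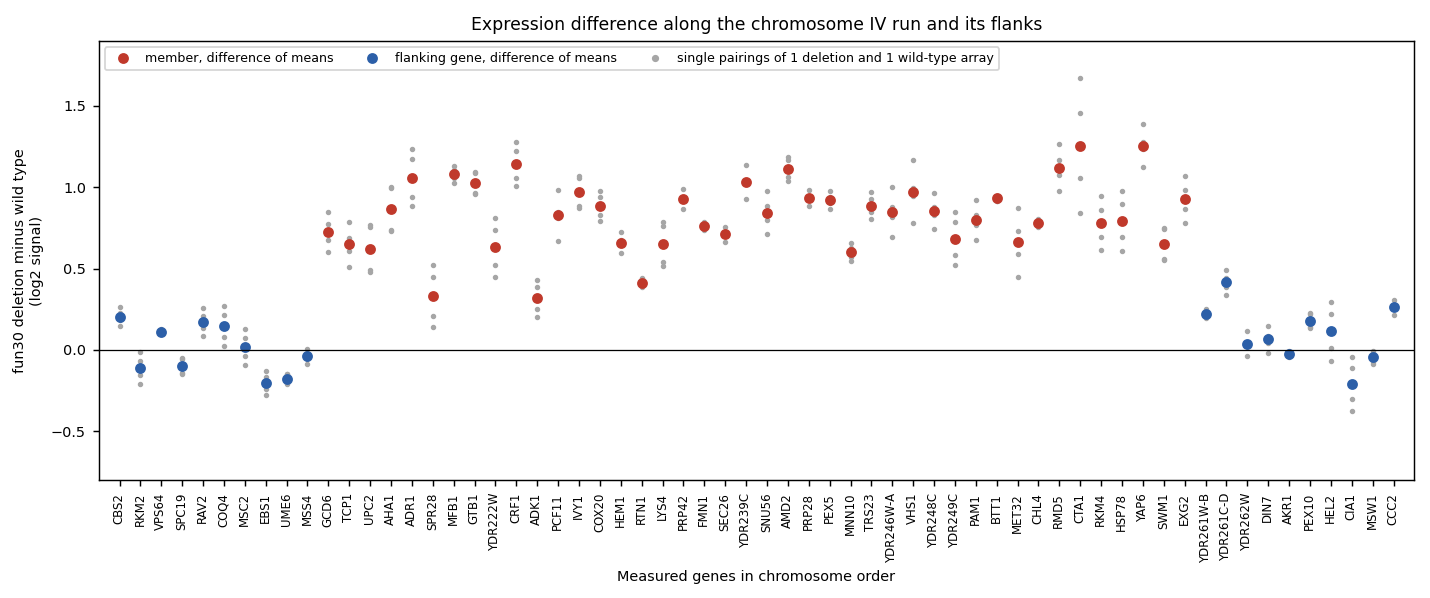
Difference in log2 signal between the fun30 deletion and the wild type (vertical axis) for the 42 measured members (red) and the 10 nearest measured probe sets on each side (blue), in chromosome order (horizontal axis). Large points are differences of means and small grey points the 4 single pairings of arrays. All members lie between 0.32 and 1.26, and the flanking probe sets between −0.21 and 0.42.

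At the start of the run the members just inside and the genes just outside differed as follows. The nearest measured gene before it is MSS4, the phosphatidylinositol 4-phosphate kinase gene, whose signals were 10.86 and 10.89 in the deletion against 10.88 and 10.95 in the wild type, a difference of −0.04. Next to it UME6, a regulator of early meiotic genes, had 10.37 and 10.32 against 10.52 and 10.52 (−0.18), and EBS1 had 9.13 and 9.16 against 9.40 and 9.29 (−0.20). In these genes the deletion was not the higher genotype. Just inside the edge GCD6, the catalytic subunit of the exchange factor eIF2B, had signals of 11.84 and 11.76 in the deletion against 11.16 and 10.99 in the wild type. TCP1, a subunit of the CCT chaperonin that folds actin and tubulin, had 13.43 and 13.33 against 12.82 and 12.64. UPC2, the sterol-sensing transcription factor, had 9.33 and 9.32 against 8.84 and 8.57. The differences of these first members were 0.73, 0.65 and 0.62, and in each the genotypes did not overlap.

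At the other edge SWM1, a subunit of the anaphase-promoting complex, had 9.93 and 9.74 in the deletion against 9.18 and 9.18 in the wild type. EXG2, an exo-glucanase of the cell wall and the last member, had 11.29 and 11.37 against 10.51 and 10.30. Their differences were 0.65 and 0.92, and again the genotypes did not overlap. Directly outside, the transposon ORF YDR261W-B had 13.78 and 13.81 against 13.56 and 13.58 (0.22), and YDR261C-D had 11.95 and 11.90 against 11.56 and 11.45 (0.42). Such elements have many near-identical copies and the names of both probe sets mark cross-hybridisation, so their signals cannot be assigned to this position. YDR262W, beyond them, had 12.03 and 11.97 against 11.92 and 12.01 (0.04), and there the genotypes overlapped. The 10 measured probe sets before GCD6 had a median of −0.01 and the 10 after EXG2 a median of 0.09, and 0 of these 20 passed the threshold in limma, where the background was 1.36% called higher and 1.29% called lower. Of the 20, 8 had both deletion arrays above both wild-type arrays, against 28.5% of all tested probe sets.

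Within the run the difference did not drift with position. The first 14 members, from GCD6 to COX20, had a median of 0.85, the next 14 up to YDR246W-A a median of 0.85, and the last 14 from VHS1 to EXG2 a median of 0.83. Neighbouring members were not alike in size, with Pearson's r = −0.16 over the 41 neighbour pairs, given as a description. The 22 members on the Watson strand and the 20 on the Crick strand had medians of 0.86 and 0.84. Other chromosomes had median differences from −0.03 to 0.03, and chromosome IV outside the span had a median of 0.001 over 665 probe sets.

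Each pairing of single arrays gave a like value. The members' median was 0.88 for deletion array 1 minus wild-type array 1, 0.85 for deletion array 1 minus wild-type array 2, 0.86 for deletion array 2 minus wild-type array 1 and 0.80 for deletion array 2 minus wild-type array 2. In each of these 4 pairings all 42 members were positive, the smallest at 0.14. Between arrays of 1 genotype, array 1 minus array 2, the members' median was 0.01 (deletion) and −0.03 (wild type). Only for SPR28 did the smallest of the 4 pairings not exceed both differences between arrays of a genotype. The share over all tested probe sets was not taken for this measure. Because the run was chosen in this contrast, values by pairing describe the choice and are not a test of it. A difference over 0.5 in every pairing was seen for 36 members, against 1.11% of all tested probe sets.

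**Figure D2:**
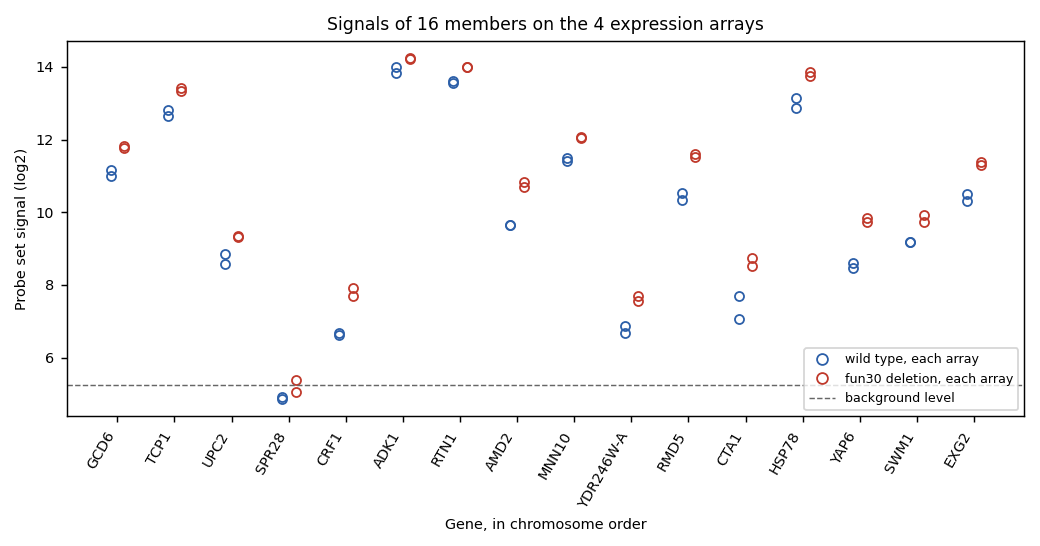
Probe set signal (log2, vertical axis) of 16 members on each array, in chromosome order (horizontal axis), with wild-type arrays in blue, deletion arrays in red and the background level of 5.24 as a dashed line. The deletion arrays lie above the wild-type arrays for every gene shown, and SPR28 lies at the background level.

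The regulators of transcription in the run differed by 0.62 to 1.26, with a median of 1.06 over 5 genes. YAP6, a bZIP factor of the AP-1 family, had the largest difference of all members. Its signals were 9.74 and 9.85 in the deletion against 8.62 and 8.47 in the wild type, a difference of 1.26 ± 0.08 (SE, n = 2 arrays a group). CRF1, a corepressor of ribosomal protein genes, was a dim probe set with 7.90 and 7.69 against 6.63 and 6.68, and differed by 1.14. Both genes had more than 2 times the wild-type signal. ADR1, the activator of glucose-repressed genes, differed by 1.06 and MET32, an activator of sulphur genes, by 0.66. UPC2 and MET32 were 2 of the 6 members that did not pass the threshold in limma, and the other four were SPR28, YDR222W, ADK1 and CTA1.

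Genes of translation and folding differed by 0.65 to 0.93 over 5 genes, all past the threshold. HSP78, the mitochondrial chaperone that resolves protein aggregates, was one of the 3 brightest members in the wild type, with 13.76 and 13.85 in the deletion against 12.87 and 13.15. AHA1, which activates the ATPase of Hsp90, differed by 0.87, and BTT1, a minor subunit of the nascent polypeptide-associated complex, by 0.93. In mRNA processing the 4 members lay close together, from 0.83 to 0.93. They were PCF11 of the cleavage factor that forms mRNA ends (0.83), the U1 snRNP components SNU56 (0.84) and PRP42 (0.93), and PRP28, a spliceosomal RNA helicase (0.93).

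Among 9 members of membrane traffic and organelles the median was 0.89 and all 9 passed the threshold. RTN1, a reticulon that shapes tubules of the endoplasmic reticulum, had the smallest difference of these. Its signals were 14.006 and 13.999 in the deletion against 13.61 and 13.56 in the wild type, a difference of 0.41 ± 0.06 (SE, n = 2 arrays a group). MNN10, a mannosyltransferase of the Golgi, had 12.06 and 12.03 against 11.49 and 11.41, a difference of 0.60. The others were SEC26 of the COPI coat (0.71), COX20, which assists assembly of cytochrome oxidase (0.88), TRS23 of the TRAPP tethering complex (0.89), PEX5, the peroxisomal import receptor (0.92), IVY1, a vacuolar lipid-binding protein (0.97), GTB1 of glucosidase II (1.03) and MFB1, a mitochondrial F-box protein (1.08).

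The 7 metabolic enzymes had the widest spread, from 0.32 to 1.26. ADK1, adenylate kinase, was the brightest member and had the smallest difference of the run, with signals of 14.25 and 14.20 in the deletion against 14.0003 and 13.82 in the wild type. CTA1, the peroxisomal catalase, had 8.74 and 8.53 against 7.08 and 7.69, so its difference of 1.26 came with the largest SE of the run, 0.21. The wild-type arrays of CTA1 differed by 0.61 from each other. AMD2, a putative amidase, had 10.70 and 10.82 against 9.64 and 9.66 and differed by 1.11. HEM1, the first enzyme of haem synthesis, LYS4, the homoaconitase of lysine synthesis, and FMN1, riboflavin kinase, differed by 0.66, 0.65 and 0.76.

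Of 7 members grouped under cell division and signalling, 6 passed the threshold. The group is a loose one, and the function of RKM4 given below is neither of these. RMD5, a subunit of the GID ubiquitin ligase that degrades gluconeogenic enzymes, had 11.51 and 11.61 in the deletion against 10.34 and 10.53 in the wild type, a difference of 1.12. VHS1, a protein kinase, differed by 0.97, PAM1 by 0.80, the kinetochore gene CHL4 by 0.78 and the ribosomal lysine methyltransferase gene RKM4 by 0.78. SPR28, a septin made during sporulation, had signals of 5.06 and 5.37 against 4.85 and 4.92. Both of its means lay below the background level, so no fold is given. Among the unnamed ORFs, YDR246W-A was dim, with 7.56 and 7.69 against 6.69 and 6.87, and differed by 0.85, while YDR222W, YDR239C, YDR248C and YDR249C differed by 0.63, 1.03, 0.85 and 0.68.

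The difference was smaller for the brightest probe sets. The signal of a probe set also depends on its probes, so levels below are signals and not amounts of RNA. The 14 dimmest members by mean signal over all arrays had a median difference of 0.89, the middle 14 had 0.92 and the 14 brightest had 0.72. Above a mean signal of 13 there were 5 members, with a median of 0.65 and values from 0.32 to 0.87. Across the 42 members Pearson's r between mean signal and difference was −0.23 and Spearman's rho −0.33. Without SPR28, which lay at background, they were −0.49 and −0.42 over 41 members. Without SPR28 and the brightest pair, ADK1 and RTN1, they were −0.34 and −0.33 over 39. Without SPR28 and all members above a mean signal of 12, they were −0.23 and −0.24 over 32. Over the 20 flanking probe sets r was 0.52 and rho 0.56. The points share the same 4 arrays, and these values only describe the members and the flanking probe sets.

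The spread of differences narrowed with signal outside the run as well. The SD of the difference over probe sets outside the span was 0.35 for mean signals over 8 to 10, 0.21 over 10 to 12, 0.16 over 12 to 13 and 0.11 above 13. Above 13 only 1 of 645 probe sets outside the span differed by more than 0.5 in either direction, or 0.155%, against 8.80% of those over 8 to 10. Over the 5451 probe sets outside the span, r between mean signal and difference was 0.06. At the top the arrays reached 15.18 to 15.21, and whether probe sets near the top still report a difference in full was not tested.

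**Figure D3:**
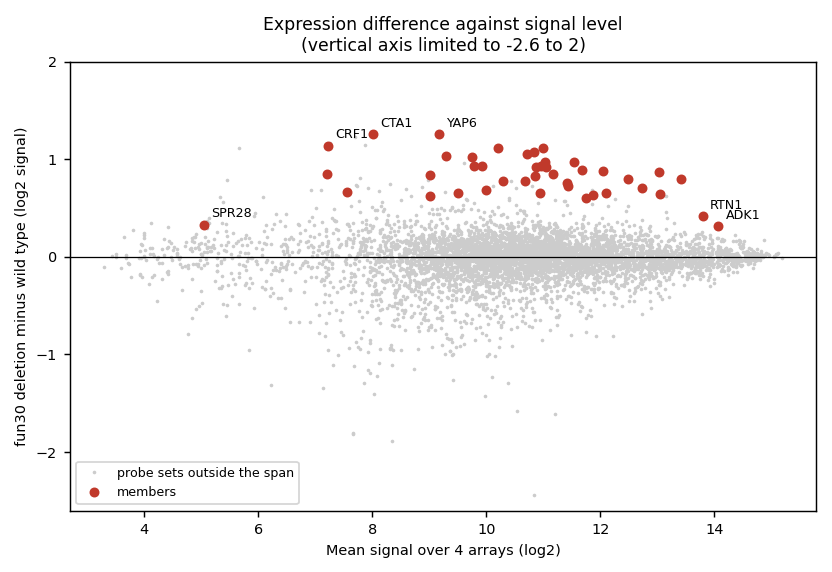
Difference in log2 signal (fun30 deletion minus wild type, vertical axis) against the mean log2 signal over 4 arrays (horizontal axis) for the 42 members (red) and for probe sets outside the span (grey). ADK1 and RTN1 at the bright end and SPR28 at the dim end lie lowest among the members. 2 grey probe sets, FUN30 and MET17, lie beyond the vertical axis.

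Many members encode 1 subunit or step of a larger unit whose other parts lie outside the run, and most of these partners had differences near 0. In 17 lists of such partners, 126 of 128 listed genes were measured, with a median difference of −0.03 and 53 positive values. In limma 1 of the 126 rose (0.794%), and 0 fell. The background was 1.36% called higher and 1.29% called lower over all tested probe sets, and 0.66% called higher outside the span, where all partners lie. At an unadjusted p under 0.05 in limma there were 9 higher and 10 lower, or 15.1% of the partners against 22.2% of all tested probe sets. With the replicate number as a block the counts were 2 higher and 6 lower, in a fit that called 271 higher and 523 lower over all.

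The gene that rose was SPR3, which like SPR28 encodes a septin of sporulation. Signals of SPR3 were 8.36 and 8.53 in the deletion against 7.24 and 7.35 in the wild type. Its difference was 1.15 ± 0.09 (SE, adjusted p = 0.00686, limma). The 5 other septins in the list, all of mitotic cells, lay between −0.24 and 0.07, and none passed.

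In the large complexes each measured partner had a smaller difference than the member of the run. Members were chosen for higher signals in this contrast and partners were not. That a member exceeds its partners therefore follows largely from the choice and is not a test, here and in the lists below. The 7 other CCT subunits had differences from −0.32 (CCT7) to −0.11, against 0.65 for TCP1. The 7 other subunits of eIF2B and its substrate eIF2 lay between −0.23 (GCD1) and 0.02, against 0.73 for GCD6. For SEC26 (0.71) the COPI partners lay between −0.16 (SEC27) and 0.06, and for TRS23 (0.89) the TRAPP partners between −0.19 (TRS20) and 0.08. The U1 snRNP partners of PRP42 and SNU56 lay between −0.28 (PRP39) and 0.21 (MUD1). For PCF11 (0.83) the 3 partners in cleavage factor IA lay between −0.04 and 0.12. No partner in these lists passed in limma, and the unadjusted p was under 0.05 for 2 CCT subunits and 1 U1 gene.

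No partner in 3 regulatory complexes passed in limma. The anaphase-promoting complex had 12 measured partners from −0.34 (CDC26) and −0.33 (DOC1) to 0.29, against 0.65 for SWM1. The Ctf19 kinetochore complex had 12 from −0.20 (MCM16) to 0.26 (NKP1), against 0.78 for CHL4. The 7 other genes of the GID ligase had a median of 0.15 and a highest value of 0.27 (FYV10), against 1.12 for RMD5. An unadjusted p under 0.05 (limma) was reached by 4, 2 and 2 genes of these lists.

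Chaperone and metabolic partners gave a like picture. In the Hsp90 system the co-chaperone gene CNS1 had −0.53 and the chaperone gene HSP82 0.23, against 0.87 for AHA1. The 7 mitochondrial chaperone genes lay within −0.08 and 0.08, against 0.79 for HSP78, and the major nascent-chain subunits EGD2 and EGD1 at −0.07 and −0.05, against 0.93 for BTT1. Peroxisomal import had 11 of 13 listed genes measured, from −0.03 to 0.27 (PEX17). Lysine synthesis ranged from −0.29 (LYS20) to 0.23 (LYS5) and haem synthesis from −0.20 (HEM12) to 0.05. In mannan polymerase II, MNN11 and MNN9 had −0.40 and −0.24, against 0.60 for MNN10. No gene of these lists passed in limma. An unadjusted p under 0.05 (limma) was reached by 2 of the 4 genes of mannan polymerase II, which all lay below 0. It was reached by 1 gene each of the Hsp90 system, peroxisomal import, lysine synthesis and haem synthesis. The peroxisomal import gene was PEX10 (0.18), which is also among the flanking genes after EXG2. In peroxisomal import both deletion arrays lay above both wild-type arrays for 5 of 11 genes, against 21.4% of all partners and 28.5% of all tested probe sets.

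**Figure D4:**
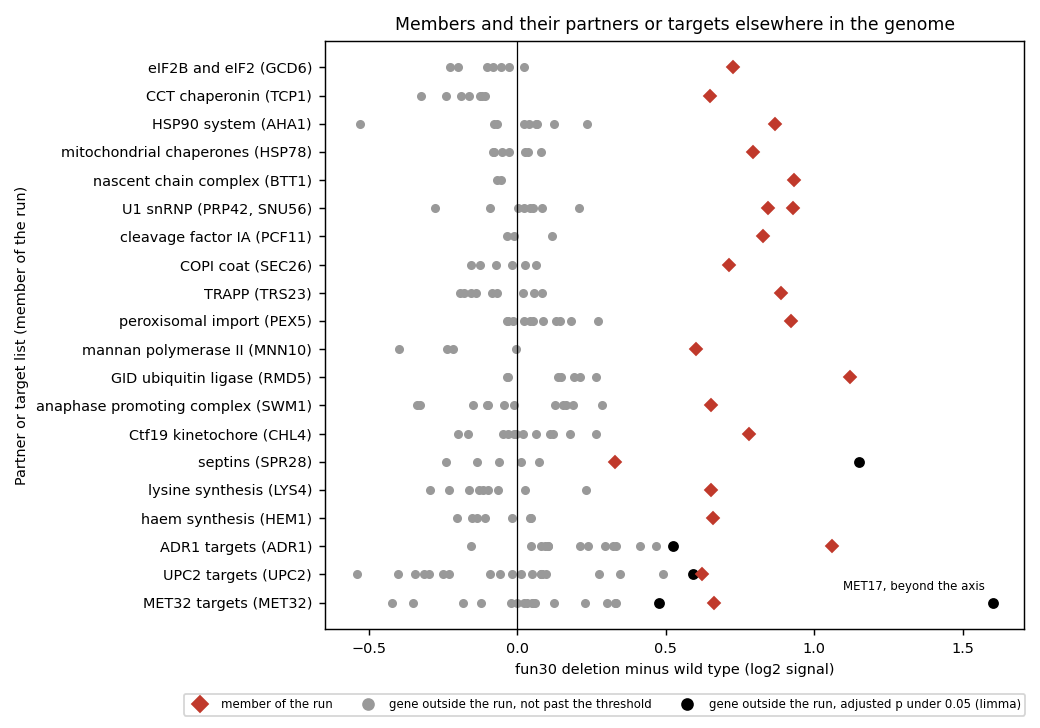
Difference in log2 signal (fun30 deletion minus wild type, horizontal axis) for members of the run (red diamonds) and for their partners or targets outside the run (circles), 1 list a row, with genes past the threshold in black. Each red diamond lies right of all its partners except in the septin row, where SPR3 lies at 1.15, and in the row of MET32 targets. The diamonds were chosen for high values in this contrast and the circles were not. MET17 is drawn at the right edge, and its value of 7.51 lies beyond the axis.

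For 3 transcription factors of the run, known targets outside the run were examined. Of 52 target genes 4 rose (7.69%, against a background of 1.36% over all tested probe sets and 0.66% outside the span) and 0 fell in limma, and the median difference was 0.08. One of the 4 was MET17, which BY4741 lacks and which went against the labelled background of the deletion strain. Its difference therefore cannot be read as a response of a target, although the 7.69% includes it. At an unadjusted p under 0.05 (limma) 12 were higher and 8 lower, or 38.5% of the targets against 22.2% of all tested probe sets. The count of rises was 2 without wild type replicate 1 and 8 without wild type replicate 2, in fits where the rises over all tested probe sets went from 75 to 52 and to 194. Without fun30 deletion replicate 1, and also without wild type replicate 2, 2 targets fell, while the falls over all probe sets went from 71 to 307 and to 208. With the replicate number as a block the counts were 7 higher and 7 lower among the targets, and 271 higher and 523 lower over all tested probe sets.

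Targets of ADR1, which serve ethanol, acetate, glycerol and fatty acid use, had a median of 0.23 with 13 of 14 positive. Of all tested probe sets 49.3% were positive. Not every positive mean held against both wild-type arrays. POT1 had 8.73 and 8.11 in the deletion against 7.81 and 8.82 in the wild type. ADY2 had 8.57 and 7.79 against 7.56 and 8.63. For POT1 and ADY2, wild-type array 2 thus lay above both deletion arrays. Both deletion arrays lay above both wild-type arrays for 8 of the 14, against 28.5% of all tested probe sets. The same separation was seen for 7 of 20 UPC2 targets and 7 of 18 MET32 targets. The one that rose was ADH2, the alcohol dehydrogenase that consumes ethanol, with 8.43 and 8.40 in the deletion against 7.82 and 7.96 in the wild type (0.52 ± 0.07 SE, adjusted p = 0.0367, limma). Without wild type replicate 1 its adjusted p was 0.0945 and with the span left out of the fit 0.0511 (limma). CTA1 is itself a target of ADR1 but belongs to the run and was not counted.

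Targets of UPC2 were divided, with a median of −0.004 over 20 genes. TIR1, a cell wall mannoprotein made under low oxygen, rose, with 9.97 and 9.92 against 9.42 and 9.29 (0.59 ± 0.08 SE, adjusted p = 0.0278, limma). The 10 targets below 0, mostly genes of ergosterol synthesis, reached down to −0.54 (ERG5), and none passed. An unadjusted p under 0.05 (limma) was reached by 9 of the 20, against 22.2% of all tested probe sets. Those of the 9 that were lower in the deletion were all genes of ergosterol synthesis. For ADR1 and MET32 it was 4 of 14 and 7 of 18 targets. Among 18 targets of MET32 the median was 0.05, and MET28 rose, as did MET17, the gene that BY4741 lacks. MET28, a cofactor of sulphur gene activation, had 9.55 and 9.44 against 9.01 and 9.03 (0.48 ± 0.07 SE, adjusted p = 0.0383, limma). Without fun30 deletion replicate 1 its adjusted p was 0.0638 and without wild type replicate 1 it was 0.123 (limma).

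The deletion strains of the run gave a readout that did not enter its choice. Each value is the deposited ratio of a strain's barcode signals between the pools, as log2 over the array median, averaged over the 2 barcode features that each of these 26 strains had. The numerator of the ratio is not stated in the labels, so strains are called above or below the median. The remaining 17 members had no strain on both arrays. Several of these, such as GCD6, TCP1, SEC26 and PRP28, are essential genes, for which homozygous deletions are not viable.

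No strain of the run stood far from the array medians. None of the 26 was past 2-fold on both arrays on the same side, where the background was 2.55% of 4235 strains (1.91% above the median and 0.638% below), and none was past 2-fold on either array. Their values ran from −0.79 to 0.63 for ISU1 and from −0.70 to 0.59 for SOD2. Past 1.5-fold on both arrays there was 1 strain, that of SWM1, against 7.2% of all strains and 2.34% below the median. The mean over both arrays, tested against 0 in limma with a SE of 0.25 shared by all strains, passed for SWM1 alone, 1 of 26 (3.85%) against a background of 8.74%, of which 2.72% lay below the median. At an unadjusted p under 0.05 (limma) there were 6 of 26 strains and 17.6% of all.

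The swm1 strain lay at −0.79 with the ISU1 cassette and −0.67 with the SOD2 cassette, a mean of −0.73 ± 0.25 (SE, n = 2 arrays) with adjusted p = 0.0400 (limma). Its 4 feature values were −0.76 and −0.81 on the first array and −0.77 and −0.56 on the second. All 4 lay below the median. Without centring of the ratios its adjusted p was the lowest of the run at 0.101 (limma), which does not pass. The p-values treat both cassettes as repeats of integration, and a plasmid pool common to both arrays would make them too small.

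The other low strains lacked HSP78, YAP6, YDR248C and RMD5. The hsp78 strain had −0.58 and −0.27 at its features on the ISU1 array, then −0.60 and −0.80 on the SOD2 array, a mean of −0.56. The yap6 strain had −0.58 and −0.67, then −0.62 and −0.24, a mean of −0.52. The YDR248C strain had −0.36 and −0.40, then −0.77 and −0.46, a mean of −0.50, and the rmd5 strain −0.56 and −0.62, then −0.08 and −0.60, a mean of −0.47. Each of these features lay below the median. The −0.08 of the rmd5 strain is a deposited ratio of 1.00 under an array median of 1.06, so its sign depends on the centring. None of these means passed in limma.

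The highest means of the run were those of RTN1 and MFB1, both 0.52, then YDR239C with 0.40, ADR1 with 0.19 and AHA1 with 0.15. The rtn1 strain had 0.61 and 0.65 on the ISU1 array, then 0.38 and 0.45 on the SOD2 array, and the mfb1 strain 0.40 and 0.51, then 0.56 and 0.63. The YDR239C strain had 0.23 and 0.41, then 0.46 and 0.51. All features of these strains lay above the median. The aha1 strain had 0.14 and 0.08, then −0.01 and 0.39, and the adr1 strain lay below the median on the first array (−0.01 and −0.27) and above it on the second (0.74 and 0.31).

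As a set the strains lay slightly low. The median of the 26 was −0.16 for ISU1 and −0.21 for SOD2, while over all strains it was −0.01 and 0.01 with SDs of 0.48 and 0.53. Below the median on both arrays were 14 of 26 (53.8%), against 30.4% of all strains, and above it on both were 5 (19.2%), against 30.2%. On single arrays 18 lay below the median for ISU1 and 17 for SOD2, against 50.9% and 49.2% of all strains. The low values lay toward the end of the run in gene order. From VHS1 to SWM1, a stretch chosen after the values were seen, all 12 strains lay below the median on the ISU1 array, as did 9 of 12 on the SOD2 array, with medians of −0.39 and −0.31. From UPC2 to PEX5 it was 6 and 8 of 14, with medians of 0.06 and −0.04.

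Of the 10 nearest strains after the run, from YDR262W to PMP3, 6 lay below the median on the ISU1 array, as did 5 on the SOD2 array, with medians of −0.16 and −0.05. The first of these is close to the median of the run itself. Of the 10 before it, from MSS116 to CPP2, it was 5 and 4, with medians of −0.002 and 0.15. Feature numbers of the strains followed gene order, and whether the place of a feature on the array moves with its value was not tested.

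Both arrays ranked the strains of the run alike, with r = 0.63 and rho = 0.58 over 26 strains, against 0.53 and 0.38 over all strains. These are descriptions, since the arrays may share a plasmid pool. Between the features of a strain, r over the 26 strains was 0.75 for ISU1 and 0.55 for SOD2. Over all strains it was 0.66 and 0.74. The largest gaps among the 26 strains were 0.67 and 0.95. By role, a mean below 0 was found for 2 of 4 regulators of transcription, 2 of 3 genes of translation and folding, 3 of 5 of membrane traffic and organelles, 3 of 3 metabolic enzymes, 6 of 7 in cell division and signalling and 2 of 4 unnamed ORFs, against 2166 of all 4235 strains. Of the metabolic enzymes AMD2 (−0.07) and CTA1 (−0.14) each lay above the median on 1 array. No strain of an mRNA processing gene was measured. The expression difference of a gene and the mean ratio of its deletion strain had r = −0.07 and rho = −0.01 over the 26 genes, which were measured in different strains.

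**Figure D5:**
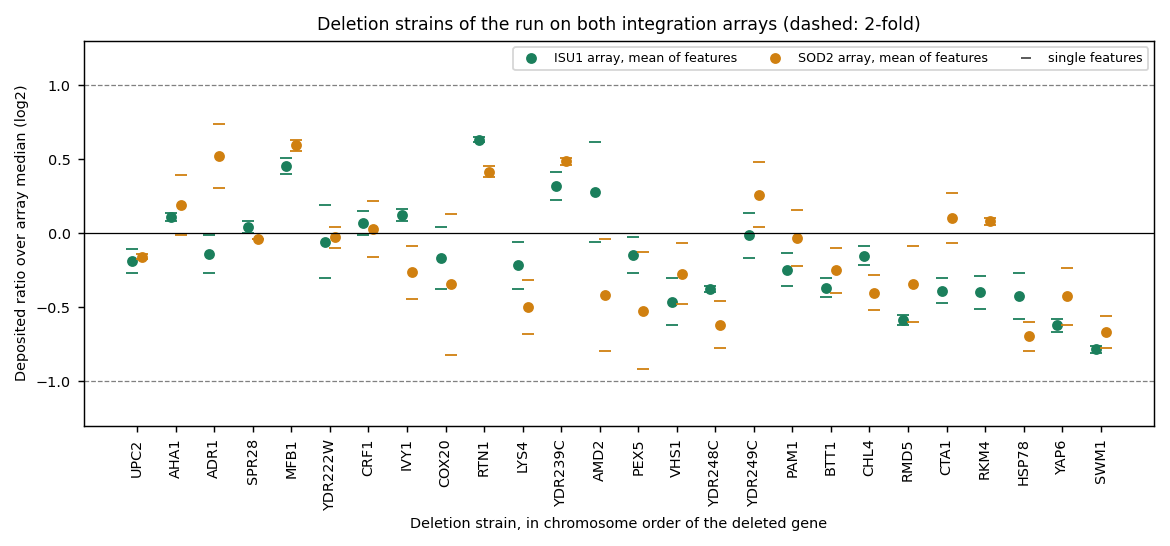
Deposited barcode ratio over the array median (log2, vertical axis) of the 26 deletion strains of the run in chromosome order (horizontal axis), for the ISU1 array (green) and the SOD2 array (orange), with single features as dashes and 2-fold as dashed lines. No strain reaches 2-fold on either array, and the 12 strains from VHS1 to SWM1 all lie below 0 on the ISU1 array.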

How the data were processed

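The authors deposited expression as 1 log2 signal a probe set, made with RMA. The submitters' processing notes name RMA and limma, without versions. RMA equalises the arrays' distributions, so a shift of all genes would not be seen. Integration values are linear ratios of 2 channels, as deposited by the authors, and neither scaling nor direction was stated in the sources used here. The table of 10928 probe sets held 5498 naming 1 gene of the RefSeq table, which were tested. The background level was the 95th percentile of 1747 probe sets annotated outside that table.

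limma 3.58.1 in R 4.3.3 (lmFit, eBayes) compared 2 arrays with 2, with Benjamini-Hochberg adjustment over all probe sets and a threshold of 0.05. The brightest probe set stood for a gene with several. Ratios were taken to log2, less the log2 of the array median (1.00 and 1.06), and averaged over a strain's features, numbered 10971 apart. The arrays correlated with r = 0.53 over strains, so neither sign was turned. The fits were checked on simulated data. p-values cover only the spread between these arrays, whose number limits the precision.

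The members, lists and tests were chosen with earlier results of these data known. Every member may be named. Values on each array are given for the first and last members, the largest and smallest differences, the brightest and dimmest members and the nearest flanking genes, and for list genes past the threshold (at most 4 a list). Otherwise up to 2 with the largest difference are named. Of the strains, the 5 highest and 5 lowest means are given in full. YDR246W-A joined the unnamed ORFs afterwards. Promoter sequences were not used here. Alternatives were each array left out, a replicate block, dim probe sets left out, other centring, a variance trend, the span left out (with the other probe sets centred again) and no model. Other steps used SciPy 1.17.1, pandas 2.3.3, numpy 2.4.6 and matplotlib 3.10.9 under Python 3.11.15.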

Additional observations from a re-analysis of the deposited data

Results flagged for a closer look

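In 3 deletion strains of the run, every feature lay on one side of the median on the ISU1 array and on the other side on the SOD2 array. Over all features averaged, 7 of the 26 strains of the run lay on opposite sides on the arrays, against 1661 of all 4235 strains. The difference was not tested, since each cassette had 1 array. The adr1 strain differed by −0.66 (log2, ISU1 minus SOD2), with −0.01 and −0.27 on the ISU1 array and 0.74 and 0.31 on the SOD2 array. The rkm4 strain differed by −0.48, with −0.51 and −0.29 against 0.10 and 0.05. The ivy1 strain differed by 0.39, with 0.16 and 0.08 against −0.08 and −0.44. Its −0.08 is a deposited ratio of 1.00 under an array median of 1.06, so this flag depends on the centring.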

How the results depend on the processing

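The members' median difference stayed between 0.81 and 0.89 and their count past the threshold between 34 and 42 under all alternatives that kept the run in the fit. Single calls were lost for RTN1 without any 1 of the 4 arrays, for YDR249C without either wild-type array, and for HSP78 and SWM1 without wild type replicate 1. Over all probe sets, leaving out 1 array gave 52 to 194 rises and 23 to 307 falls against 75 and 71, the replicate block 271 and 523, and the span left out of the fit 26 and 49. Leaving out 1 array gave 1 partner that rose, 0 to 1 partners that fell, 2 to 8 targets that rose and 0 to 2 targets that fell. The replicate block gave 2 and 6 partners and 7 and 7 targets. Deviations of same-numbered arrays correlated with r = 0.26, but 2 pairs are too few to show that the numbers pair the samples. A difference past 0.5 in all pairings gave 1 target that rose. Past 1.5-fold there was 1 strain in place of 0. In the test of strain means 0 strains passed without centring and 0 with the SOD2 sign turned, against 1. Without centring, the strains' median on the SOD2 array was −0.12 in place of −0.21. The causes were not tested. With 2 arrays a genotype and 1 a cassette, the number of arrays limits all comparisons.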
